A study of Caenorhabditis elegans with 6 samples.

Results

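The ceh genes are the numbered homeobox genes of the nematode *Caenorhabditis elegans*, and 63 of the 46748 features in the deposited count table carry a WormBase symbol made of ceh and a number. All 63 are annotated as protein coding. They were compared between 3 RNA sequencing libraries whose perturbation label is Y6B3B.9 and 3 whose label is L4440. All 6 libraries came from whole hermaphrodites of strain N2, the wild-type laboratory strain, 5 days old. L4440 is the plasmid that commonly serves as the control in RNA interference by feeding, and Y6B3B.9 is a worm gene. The labels do not say how the gene was perturbed or in which direction. The gene itself was higher in the libraries that bear its name, at 35.8 ± 3.58 against 22.8 ± 0.387 CPM (SD, n = 3 each), where CPM are reads of a gene in 1000000 reads of the TMM-scaled library, TMM being edgeR's trimmed mean of ratios. "Higher" and "lower" therefore always mean the libraries labelled Y6B3B.9 relative to those labelled L4440.

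Homeobox genes encode transcription factors that bind DNA through a homeodomain, a small fold of helices, and they are known for setting the identity of cells and body regions. They are sorted into classes by the homeodomain itself and by further domains beside it, such as the CUT, POU, PBC and LIM domains. In *C. elegans* many homeobox genes act in single neuron classes, so a whole-worm sample holds few cells that use them, whereas some others are used broadly or are supplied by the mother to the embryo. Because whole worms were sampled, fewer cells of a type and less RNA per cell cannot be told apart in any value below.

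Of the 63 genes, 44 had enough reads to be tested, which took at least 0.351 CPM without TMM scaling in 3 libraries. Among them 20 were higher and 16 lower at an adjusted p of 0.05 (edgeR quasi-likelihood test, Benjamini-Hochberg adjustment over 14265 genes), and 8 were not called. Across all tested genes 84.1% were called, 46.4% as higher and 37.7% as lower, so the called share of the ceh genes, 81.8%, lies near that of any genes in this comparison. For 38 of the 44, every value of one label lay on the same side of every value of the other, as it did for 85.4% of all tested genes. Of the called ceh genes 55.6% were higher, and 66.7% were when libraries were scaled by their totals alone, where the same shares of all called genes were 55.2% and 67.4%. A call of at least 2-fold higher was made for 14 ceh genes (23.6% of all tested genes) and of at least 2-fold lower for 8 (10.2% of all tested genes). The log2 changes ran from -3.30 for ceh-82 to 3.32 for ceh-8, with a median of 0.40 beside 0.22 over all tested genes. Of the tested genes, 7, namely ceh-2, ceh-8, ceh-27, ceh-31, ceh-45, ceh-51 and ceh-82, exceeded the filter in libraries of one label only, so a difference was built into their being tested.

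**Figure D1:**
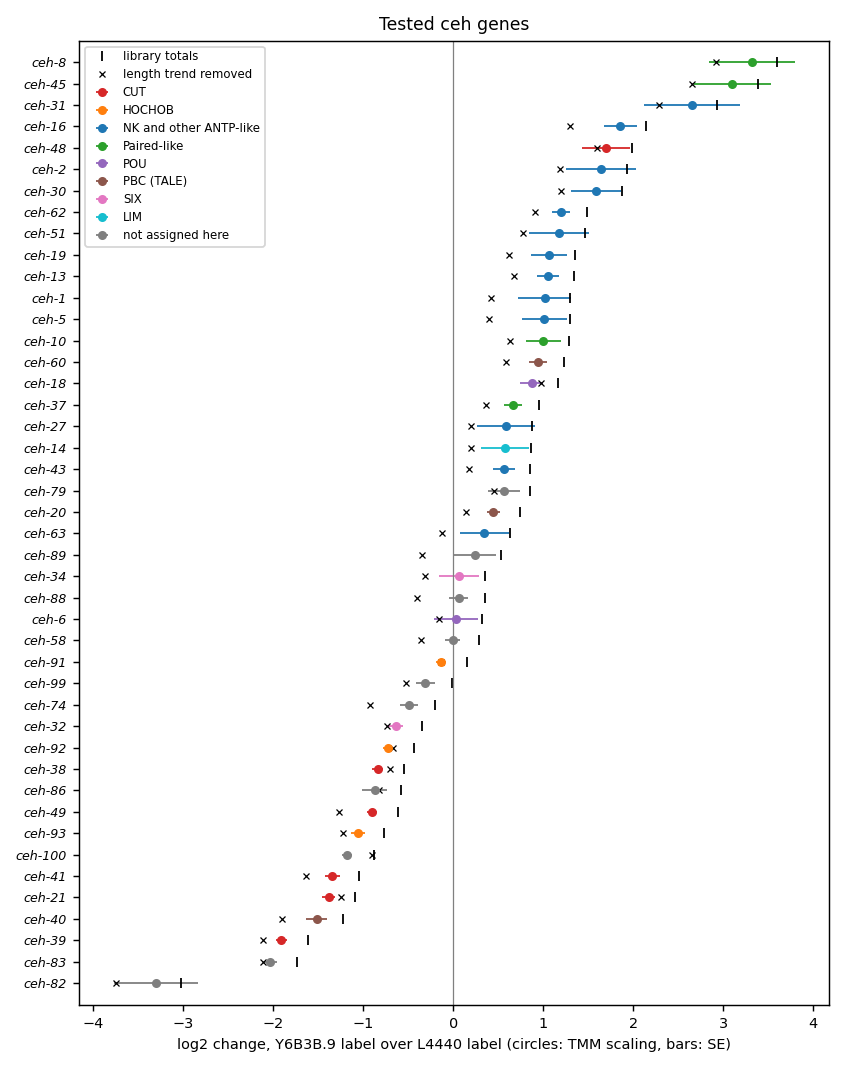
Log2 change of the 44 tested ceh genes, with circles and bars for the change and its SE under TMM scaling, coloured by class, vertical ticks for the change with library totals alone and crosses for the change with the trend with gene length removed. CUT and HOCHOB genes lie mostly on the lower side and ANTP-like and paired-like genes on the higher side.

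Direction went with level. The 15 ceh genes with a mean of at least 10 CPM held 3 that were higher and 11 that were lower, while the 29 tested ones under 10 CPM held 17 higher and 5 lower. Other genes were split the same way by level: of all tested genes with at least 10 CPM, 28.2% were higher and 61.4% lower, and of those under 10 CPM, 67.3% were higher and 10.6% lower. Reads of all ceh genes together came to 723.5, 686 and 648.8 in 1000000 reads under the Y6B3B.9 label and to 880.7, 887.7 and 899.3 under the L4440 label, without TMM scaling. The sum was thus lower under the Y6B3B.9 label in every library, although more of its members rose than fell.

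**Figure D2:**
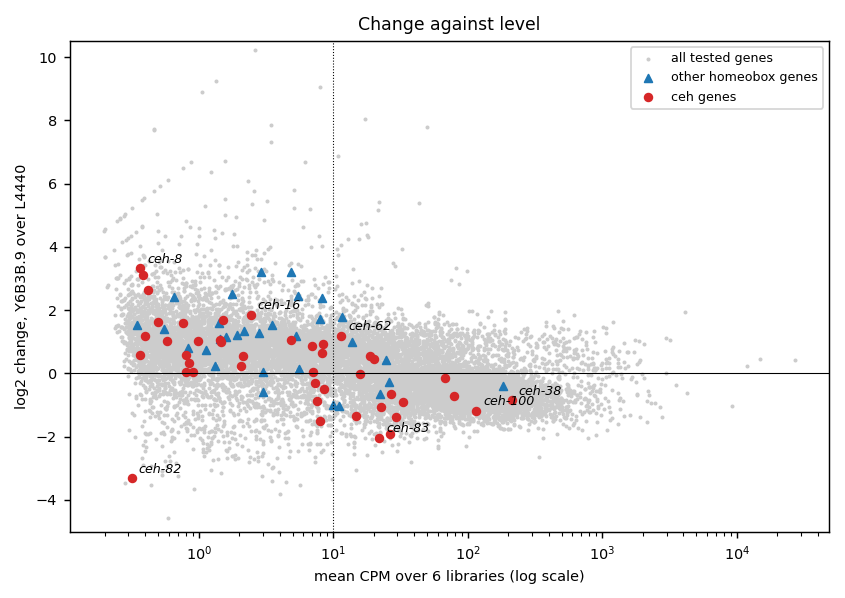
Log2 change against mean CPM on a log axis for all tested genes (grey), the ceh genes (red circles) and the other homeobox genes (blue triangles), with a dotted line at 10 CPM. Most ceh genes to the right of the line lie below 0 and most to its left above 0, as the grey points also do.

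The CUT class, whose proteins pair a homeodomain with a CUT domain, held the most abundant ceh transcripts. Several genes of the class are known to act together on genes used by all neurons. All 6 measured members were called, 5 lower and 1 higher. Over all tested genes 84.1% were called. The 5 lower members averaged over 10 CPM, where 61.4% of all tested genes were lower. ceh-38, a broadly expressed Onecut gene at II:6951526-6955409 (build WBcel235), had the highest level of any ceh gene per length, at 77.4 CPM per kilobase. It stood at 164, 153 and 138 CPM under the Y6B3B.9 label and at 264, 276 and 274 CPM under the L4440 label. Its exons share 26 bases with tra-2 on the other strand. Every library of the first label lay below every library of the second, a 1.79-fold difference (log2 change -0.84, SE 0.059, edgeR adjusted p = 5.84e-09). ceh-49, another CUT gene, had 23.2, 22.2 and 23.6 CPM against 43.6, 42.8 and 42.8 CPM and was lower without overlap as well (log2 change -0.91, SE 0.057, edgeR adjusted p = 1.65e-09).

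Another 3 CUT genes stand side by side on the minus strand of the X chromosome. ceh-41 lies at X:1846608-1848675, ceh-21 at X:1848779-1852736 and ceh-39 at X:1853874-1856172. ceh-39 is known as an X signal element, one of the genes by which the early embryo counts its X chromosomes to choose its sex. It had 11.5, 11.2 and 10.7 CPM under the Y6B3B.9 label and 42.6, 41.5 and 41.7 CPM under the L4440 label. This 3.75-fold fall had the smallest p of any ceh gene (log2 change -1.91, SE 0.064, edgeR adjusted p = 6.45e-12). ceh-21 had 17.3, 16.3 and 14.9 CPM against 39.3, 44.9 and 42.7 CPM (log2 change -1.38, SE 0.073, edgeR adjusted p = 2.85e-10). ceh-41 had 7.83, 9.04 and 8.22 CPM against 20.3, 22.4 and 20.9 CPM (log2 change -1.34, SE 0.085, edgeR adjusted p = 1.84e-09). All 3 were therefore lower in every library of the Y6B3B.9 label, ceh-39 the most. T26C11.9, a gene between ceh-21 and ceh-39, took 127 reads in all and was not called (log2 change -0.17, SE 0.31, edgeR adjusted p = 0.617). The fall was not limited to ceh genes there. T26C11.4, at X:1840554-1845546 on the same strand, took 3072 reads and was lower too (log2 change -1.52, SE 0.079, edgeR adjusted p = 2.44e-10).

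A ratio of reads within 1 library does not depend on how libraries are scaled, and pairs of related ceh genes were compared in that way, the 6 pairs being chosen after their values were seen. Reads of ceh-39 per read of ceh-21 were 0.667, 0.686 and 0.718 under the Y6B3B.9 label and 1.08, 0.925 and 0.976 under the L4440 label. These did not overlap (exact two-sided permutation test, p = 0.1, the smallest that 3 against 3 libraries allow). Reads of ceh-41 per read of ceh-21 were 0.452, 0.554 and 0.55 against 0.516, 0.499 and 0.4904, which overlapped (exact p = 0.8). The ratio to ceh-21 was thus lower for ceh-39 in each Y6B3B.9 library, while that of ceh-41 had no order by label. No ratio of 3 against 3 libraries could pass 0.05, and since the pairs were picked from their values these are descriptions. Whether near-identical stretches of these related genes could share reads was not tested.

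ceh-48, an Onecut gene known for expression throughout the nervous system, went the other way. It averaged under 10 CPM, unlike the 5 lower CUT genes, and 67.3% of all tested genes at that level were higher. It had 2.49, 2.92 and 1.53 CPM under the Y6B3B.9 label and 0.5205, 0.804 and 0.824 CPM under the L4440 label, a 3.25-fold rise (log2 change 1.70, SE 0.27, edgeR adjusted p = 3.33e-05). Per read of ceh-38 its reads numbered 0.0152, 0.0191 and 0.0111 against 0.00197, 0.00291 and 0.00301, without overlap, and this ratio was 5.71-fold higher (exact two-sided permutation test, p = 0.1). A further CUT gene, ceh-44, has no feature of its own in the count table under the names used here. RefSeq places it within the locus of cone-1, which starts at the same base of chromosome III, and the feature now named cone-1 was lower (log2 change -0.97, SE 0.053, edgeR adjusted p = 4.5e-10), so that reads of the 2 genes could not be separated.

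**Figure D3:**
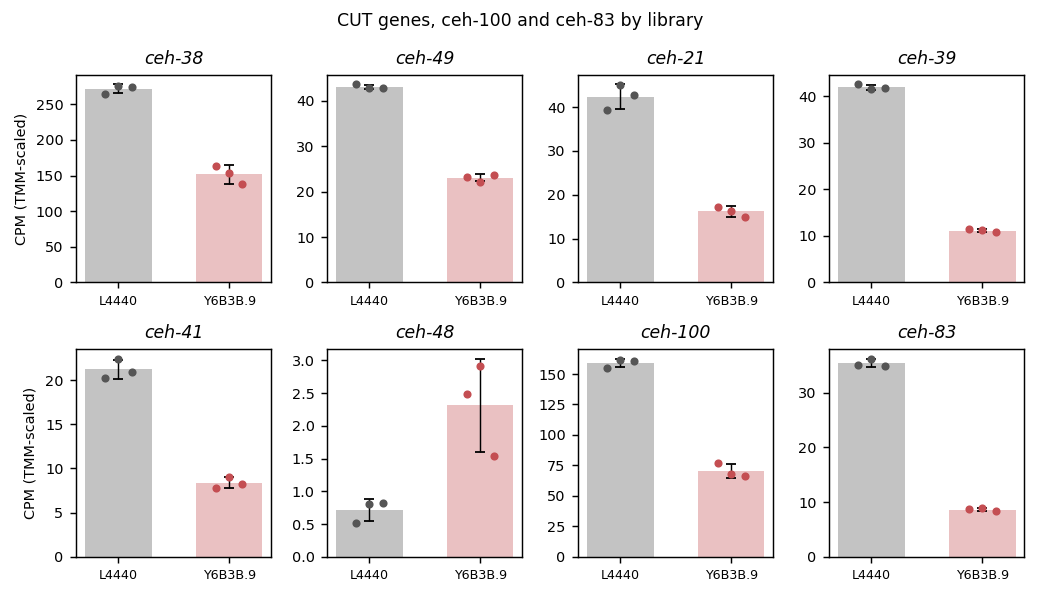
CPM by library for the 6 CUT genes, ceh-100 and ceh-83, with points for libraries, bars for the mean and whiskers for the SD (n = 3). The 3 Y6B3B.9 libraries lie below the 3 L4440 libraries in every panel except that of ceh-48, where they lie above.

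Transcripts of the germline moved in the same direction as these abundant genes. Over all tested genes 37.7% were lower, and 61.4% of those with at least 10 CPM. All 12 of a list of germline and oocyte genes, each averaging over 10 CPM, were lower, by a median of -1.24 on the log2 scale. They include glh-2 (-1.72), a helicase of germ granules, the oocyte yolk receptor gene rme-2 (-1.42) and the meiotic axis gene htp-3 (-1.28). Their summed level lay between 4706 and 4809 CPM under the Y6B3B.9 label and between 10250 and 10630 CPM under the L4440 label. Of 12 early embryonic genes 8 were tested and 7 were lower, with vet-6 (-3.04), pes-10 (-3.53) and sdz-28 (-2.33) having the smallest p. That sum lay between 18.7 and 24.1 CPM under the Y6B3B.9 label and between 108 and 162 CPM under the L4440 label, and med-1 had no read in any library. The part of fewer germ cells or embryos in the falls of the ceh genes was not tested.

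The HOCHOB class, homeodomain genes that share a further domain of that name, was lower in all 3 members with TMM scaling, though not in ceh-91 with library totals. All 3 averaged over 10 CPM, where 61.4% of all tested genes were lower. ceh-93, on the X chromosome, stood at 15.4, 15.6 and 13.02 CPM against 30.4, 31.5 and 30.2 CPM (log2 change -1.06, SE 0.076, edgeR adjusted p = 7.25e-09). ceh-92 stood at 62.1, 59.01 and 56.5 CPM against 98.2, 98.6 and 97.01 CPM (log2 change -0.73, SE 0.049, edgeR adjusted p = 3.54e-09). ceh-91 stood at 67.4, 64.1 and 62.9 CPM against 67.7, 77.1 and 69.5 CPM, a difference of -0.14 (SE 0.056, edgeR adjusted p = 0.0331). That last call rests on the processing: ceh-91 was called higher with library totals, at 0.15, and it did not pass without L4440 replicate 2 (-0.11), Y6B3B.9 replicate 2 (-0.14) or Y6B3B.9 replicate 3 (-0.12). In reads per read of ceh-92, ceh-91 had 1.09, 1.09 and 1.11 under the Y6B3B.9 label and 0.689, 0.782 and 0.717 under the L4440 label, so relative to its paralog it was 1.505-fold higher without overlap (exact two-sided permutation test, p = 0.1). Both are among the 3 ceh genes with the highest level per length, at 32.98 CPM per kilobase for ceh-92 and 31.6 for ceh-91.

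Among 17 members that were given no class here, 10 were tested, with 6 lower, 1 higher and 3 not called. Over all tested genes 37.7% were lower, with 61.4% of those of at least 10 CPM and 10.6% of those under it. ceh-100, at II:12582178-12603680, had 76.6, 68.2 and 66.5 CPM against 155, 162 and 160.3 CPM, a 2.26-fold fall (log2 change -1.17, SE 0.056, edgeR adjusted p = 1.07e-10), and was the ceh gene with the largest read count after ceh-38. ceh-83, at II:1733716-1736533, had 8.76, 8.86 and 8.3 CPM against 34.99, 36.2 and 34.9 CPM, a 4.09-fold fall (log2 change -2.03, SE 0.069, edgeR adjusted p = 7.63e-12). Its neighbour ceh-82, which ends 424 bases before it on the other strand, took 1, 3 and 1 reads under the Y6B3B.9 label and 16, 11 and 19 reads under the L4440 label (log2 change -3.30, SE 0.47, edgeR adjusted p = 1.24e-05). Both genes of that pair were lower in every Y6B3B.9 library, and the third gene of the cluster, ceh-81, took at most 2 reads in any library.

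The remaining lower members of this group had smaller changes, ceh-86 (log2 change -0.87, SE 0.14), ceh-74 (log2 change -0.49, SE 0.10) and ceh-99 (log2 change -0.31, SE 0.10). With library totals the last 2 did not pass, at -0.20 and -0.02. ceh-79 was higher (log2 change 0.56, SE 0.18), but did not pass without L4440 replicate 2 (0.45). ceh-58, ceh-88 and ceh-89 were not called, at -0.01 (SE 0.078), 0.06 (SE 0.10) and 0.24 (SE 0.23). With library totals ceh-58 and ceh-88 were called higher, at 0.28 and 0.35, and with the length trend removed both were called lower, at -0.35 and -0.40, so no direction is given for them. In addition, ceh-88 shares 809 exonic bases with C49C3.6 on the same strand, a gene with 15258 reads, so its count is uncertain. ceh-89 passed as higher without L4440 replicate 3 (0.67), the library in which it took 82 reads.

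The PBC class, relatives of fly Extradenticle and mammalian Pbx that bind DNA together with Hox and Meis-type proteins, divided. ceh-20, a Hox partner used in many tissues, had 24.2, 23.7 and 22.1 CPM under the Y6B3B.9 label and 17.5, 18.2 and 15.8 CPM under the L4440 label (log2 change 0.45, SE 0.075, edgeR adjusted p = 6.61e-05). It was higher without overlap, but was no longer called when the trend of log2 change with gene length, fitted over all tested genes, was removed (0.14). ceh-60, which is known to promote vitellogenin expression in the intestine together with the Meis-type gene unc-62, lies at X:6522596-6530146 and rose 1.92-fold, from 5.65, 5.34 and 6.12 CPM to 10.3, 11.5 and 10.97 CPM (log2 change 0.94, SE 0.10, edgeR adjusted p = 6.17e-07). ceh-40, which overlaps in function with ceh-20 in the embryo, fell 2.86-fold, from 13.1, 10.3 and 12.1 CPM to 4.05, 4.13 and 4.25 CPM (log2 change -1.52, SE 0.11, edgeR adjusted p = 1.12e-08).

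The 3 genes were also compared within libraries. Reads of ceh-40 per read of ceh-20 were 0.167, 0.174 and 0.193 under the Y6B3B.9 label and 0.75, 0.567 and 0.767 under the L4440 label. Reads of ceh-60 per read of ceh-20 were 0.427, 0.487 and 0.497 against 0.323, 0.294 and 0.387. Neither ratio overlapped between labels, the first being lower and the second higher under the Y6B3B.9 label (exact two-sided permutation test, p = 0.1 for each). Exons of ceh-60 and ets-4 share 72 bases on opposite strands, the library kit does not record strand, and ets-4 was higher too (log2 change 0.67, SE 0.066, edgeR adjusted p = 2.7e-07).

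unc-62 had 24.5, 24.5 and 21.6 CPM against 28.7, 28.3 and 28.9 CPM, lower with TMM scaling (log2 change -0.28, SE 0.066, edgeR adjusted p = 0.0013) but at 0.01 when scaled by totals alone, and uncalled at -0.12 once the length trend was taken out. Of the 6 vitellogenin genes, 3 were higher, namely vit-2 (0.47), vit-6 (0.43) and vit-5 (0.25), and 3 were not called. Among all tested genes with at least 10 CPM, as these have, 28.2% were higher. With DESeq2's size factors vit-5 was not called (0.095). The median over the 6 was 0.19 against 0.22 over all tested genes. The summed level of the 6 lay between 62760 and 66370 CPM under the Y6B3B.9 label and between 48300 and 50920 CPM under the L4440 label. Of 8 intestinal genes, all but elt-7 averaging over 10 CPM, 7 were higher and 1 lower. The higher share was 46.4% over all tested genes and 28.2% over those with at least 10 CPM. The intestinal genes with the smallest p were ges-1 (1.19), act-5 (0.92) and ifb-2 (1.23), and pept-1 was at -0.62. The sum of that list lay between 2993 and 3339 CPM under the Y6B3B.9 label and between 1704 and 1769 CPM under the L4440 label, and its part in the rise of ceh-60 was not tested.

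**Figure D4:**
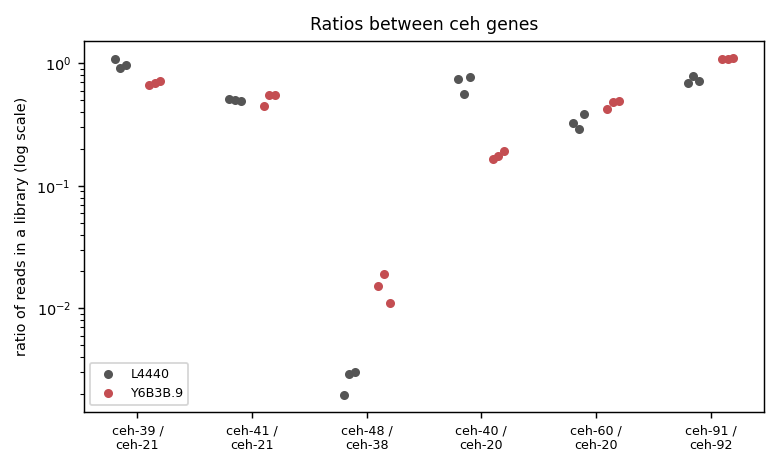
Reads of one ceh gene per read of another in each library, on a log axis, for 6 pairs, with grey points for L4440 and red points for Y6B3B.9. The labels are separate in every pair except ceh-41 per ceh-21.

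In the POU class, ceh-18 is known for its part in the gonadal sheath cells that surround and signal to the oocytes. It had 7.62, 10.3 and 8.93 CPM under the Y6B3B.9 label and 4.64, 5.26 and 4.78 CPM under the L4440 label, a 1.83-fold rise without overlap (log2 change 0.87, SE 0.13, edgeR adjusted p = 1.59e-05). lim-7, a LIM homeobox gene of the same sheath, rose too (log2 change 1.796, SE 0.093, edgeR adjusted p = 2.42e-10). Of 5 genes listed for the sheath and distal tip cell, among them lim-7, 4 were higher and 1 lower. All but lag-2 averaged over 10 CPM. The higher share was 46.4% over all tested genes and 28.2% over those with at least 10 CPM. inx-8 was at 0.31 and inx-9 at 0.28. Neither was called with the length trend removed (0.05 and -0.02) or with DESeq2's size factors (0.16 and 0.13). lag-2, the Notch ligand gene of the distal tip cell, was at -2.15 (SE 0.31). The summed level of the 5 lay between 213 and 251 CPM under the Y6B3B.9 label and between 176 and 187 CPM under the L4440 label. Most of it came from inx-8, with means of 157.5 and 126.6 CPM. The other POU gene, ceh-6, known for the excretory canal cell, took 25, 27 and 21 reads against 17, 25 and 20 reads. Its labels overlapped and it was not called (log2 change 0.03, SE 0.25, edgeR adjusted p = 0.911), the sign depending on the scaling (-0.12 with DESeq2's size factors).

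The class related to the fly gene sine oculis had 1 lower gene. ceh-32, known for the shaping of the head, had 22.8, 20.1 and 20.5 CPM against 35.4, 28.2 and 35.2 CPM and was lower (log2 change -0.64, SE 0.087, edgeR adjusted p = 8.29e-06). ceh-34, known for giving the neurons of the pharynx their identity, had 28, 33 and 23 reads against 21, 20 and 29 reads and was not called (log2 change 0.06, SE 0.22, at -0.09 with DESeq2's size factors). Its neighbour ceh-33 took between 2 and 8 reads in each library and was not tested.

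The largest class was that of NK and other ANTP-like genes, the class that includes the Hox genes. Of its 20 members 13 were tested, and 11 of these were higher, 0 lower and 2 not called, with a median log2 change of 1.06. Of all tested genes 46.4% were higher, and 67.3% of those under 10 CPM. ceh-2, ceh-27, ceh-31 and ceh-51 exceeded the filter under the Y6B3B.9 label only, so the count of higher genes and the median hold members that had to differ to be tested. Their levels were low, and the class took 9.15%, 9.36% and 9.56% of all ceh reads under the Y6B3B.9 label but 3.28%, 2.77% and 3.32% under the L4440 label. The most abundant was ceh-43, the worm Distal-less gene, with 25.4, 22.3 and 19.5 CPM against 16.3, 12.1 and 17.1 CPM (log2 change 0.57, SE 0.12, edgeR adjusted p = 0.000976). This rise was not called with the length trend removed (0.17). ceh-62 had 14.4, 15.7 and 17.4 CPM against 6.81, 6.71 and 7.14 CPM, a 2.29-fold rise with the smallest p among the higher ceh genes (log2 change 1.20, SE 0.096, edgeR adjusted p = 2.58e-08).

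Another 2 of these genes are known for patterning. ceh-13, the labial-type Hox gene of the anterior body, had 6.21, 6.495 and 6.84 CPM against 2.803, 3.33 and 3.26 CPM (log2 change 1.05, SE 0.12, edgeR adjusted p = 1.63e-06). ceh-16, the engrailed gene of the worm, known for the seam cells of the epidermis, had 4.198, 4.04 and 3.15 CPM against 1.16, 1.08 and 0.927 CPM, a 3.62-fold rise (log2 change 1.86, SE 0.18, edgeR adjusted p = 2.34e-07). Both were higher without overlap, and both stayed called with the length trend removed, at 0.67 and 1.29. Exons of ceh-16 share 57 bases with polk-1 on the other strand, which had far more reads and was lower (-0.52).

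**Figure D5:**
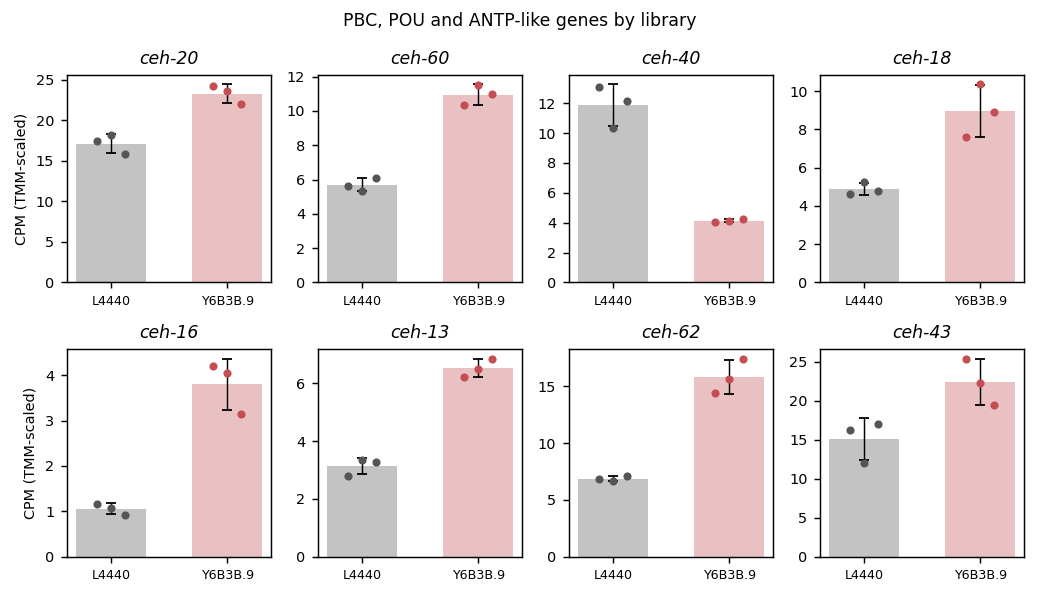
CPM by library for PBC, POU and ANTP-like genes, with points for libraries, bars for the mean and whiskers for the SD (n = 3). The 3 Y6B3B.9 libraries lie above the L4440 libraries in every panel except that of ceh-40, where they lie below.

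Of the rarer ANTP-like genes, the 7 that were called averaged under 1 CPM under the L4440 label. The Bar-type neighbours ceh-30 and ceh-31 on the X chromosome had 37, 45 and 23 and 22, 27 and 18 reads respectively under the Y6B3B.9 label against 8, 10 and 12 and 1, 0 and 8 reads under the L4440 label. ceh-30, known for the survival of male-specific head neurons, had a log2 change of 1.59 (SE 0.28) and ceh-31 one of 2.65 (SE 0.53). The size of the ceh-31 change depended on 1 library, as it was 4.91 without L4440 replicate 3, which held 8 of its reads. Its direction did not, being 2.27 without L4440 replicate 1 and 2.09 without L4440 replicate 2. ceh-2, related to fly empty spiracles and known from the pharynx, rose (log2 change 1.64, SE 0.39), and so did ceh-19 (log2 change 1.06, SE 0.20), known from pharyngeal motor neurons. ceh-1 (log2 change 1.02, SE 0.29) and ceh-5 (log2 change 1.01, SE 0.25) also passed, though not with the length trend removed (0.42 and 0.39). ceh-5 shares 73 exonic bases with ocrl-1, and ceh-19 shares 49 with mcm-3AP, both on the other strand, and both partners were lower (-0.95 and -1.03). ceh-51, a gene of the embryonic mesoderm, took 16, 18 and 16 reads against 5, 8 and 6 reads and was higher (log2 change 1.18, SE 0.33, edgeR adjusted p = 0.00456), while most early embryonic genes on the list were lower. The DESeq2 Wald test did not call ceh-51 (1.05). ceh-27 (log2 change 0.59, SE 0.32) and ceh-63 (log2 change 0.34, SE 0.27) were not called, and ceh-63 shares 18 exonic bases with tag-52 on the same strand.

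Paired-like genes, many of which specify sensory and interneurons, were called higher in the 4 tested members of 8. Of these, ceh-8 and ceh-45 exceeded the filter under the Y6B3B.9 label only, so they had to differ to be tested, and all 4 averaged under 10 CPM, where 67.3% of all tested genes were higher. ceh-37, an Otx-type gene, was the most abundant, with 9.38, 10.9 and 10.03 CPM against 6.17, 6.43 and 6.596 CPM (log2 change 0.66, SE 0.10, edgeR adjusted p = 2.44e-05). ceh-10, related to vertebrate Chx10 and known for interneurons of the head, had 70, 63 and 45 reads against 22, 22 and 33 reads (log2 change 1.00, SE 0.19). ceh-8, related to vertebrate Rax, had 22, 21 and 18 reads against 2, 0 and 3 reads (log2 change 3.32, SE 0.48). ceh-45, of the goosecoid type, had 20, 19 and 23 reads against 2, 2 and 2 reads (log2 change 3.10, SE 0.43). ceh-8 and ceh-45 thus went from nearly no reads to between 18 and 23 reads a library, and fitted changes from so few reads depend on the prior count. ceh-14, the LIM gene known for thermosensory neurons, had 42, 24 and 22 reads against 17, 14 and 20 reads and was not called (log2 change 0.58, SE 0.27, edgeR adjusted p = 0.0579). ceh-14 did pass with library totals (0.87), in both fits to RPKM and without Y6B3B.9 replicate 2 (0.74), and was at 0.30 without Y6B3B.9 replicate 1.

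Markers of somatic tissues were measured beside these rises. Over all tested genes 46.4% were higher and 37.7% lower. The higher share was 28.2% with at least 10 CPM and 67.3% under it. Of 16 genes listed as neuronal 10 were higher, 4 lower and 2 not called, the smallest p being those of unc-64 (1.21), egl-21 (0.84) and ehs-1 (-0.57). Of the lower ones unc-104 turned to 0.09 under library totals and to 0.10 after removal of the length trend. The summed level of the 16 lay between 593 and 619 CPM under the Y6B3B.9 label and between 571 and 604 CPM under the L4440 label. In it snb-1, unc-11 and ehs-1 weighed most. Their means were 193, 95.7 and 81.6 CPM under the Y6B3B.9 label and 184, 134 and 121 CPM under the L4440 label. All 4 pharyngeal muscle genes were higher, tnc-2 by 1.03, myo-1 by 0.58 and myo-2 by 0.56 on the log2 scale, with a sum between 54.4 and 57.8 CPM under the Y6B3B.9 label and between 33.6 and 36.7 CPM under the L4440 label. Of 9 epidermal and seam genes 8 were tested, of which 5 were higher and 3 lower. The higher ones were dpy-7 (2.99), rol-6 (2.89), nhr-25 (1.57), grd-10 (1.45) and elt-3 (0.76). The lower ones were egl-18 (-0.81), lin-26 (-0.55) and elt-1 (-0.25, but 0.04 with library totals). The summed level of the 9 lay between 204 and 215 CPM under the Y6B3B.9 label and between 278 and 292 CPM under the L4440 label. Most of it came from 2 of the lower genes. Their respective means were 133.5 and 194.8 CPM for lin-26 and 37.5 and 65.8 CPM for egl-18. Of 6 body muscle genes 3 were higher, namely atn-1 (0.89), pat-10 (0.85) and mup-2 (0.501). myo-3 was lower (-0.32, but -0.03 and uncalled with library totals), and unc-54 (0.06) and unc-15 (0.10) were not called. The summed level of the 6 lay between 895 and 974 CPM under the Y6B3B.9 label and between 621 and 766 CPM under the L4440 label. Within it the respective means were 299 and 166 CPM for pat-10, 136 and 73.2 CPM for atn-1, and 266 and 254.5 CPM for unc-54. Of 6 sperm genes 4 were higher and 1 lower, among them spe-41 (2.12), spe-15 (0.94) and spe-44 (-0.801), with a sum between 52.4 and 62.5 CPM under the Y6B3B.9 label and between 41.8 and 44.7 CPM under the L4440 label. The part of any of these tissues in the changes of the ceh genes was not tested.

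The 19 ceh genes left untested took between 0 and 13 reads in a library and at most 38 over the 6 libraries. ceh-28, known for a single pharyngeal neuron, and ceh-84 had no read at all. A count of 0 allows up to between 0.0937 and 0.130 CPM without TMM scaling in a library (3 counts, counting error only). ceh-22, the worm relative of fly tinman and a known regulator of pharyngeal muscle genes, took 8, 10 and 6 reads under the Y6B3B.9 label and 7, 3 and 4 reads under the L4440 label, which overlapped. ceh-24, a gene of vulval muscles, took 6, 6 and 4 against 1, 3 and 4 reads, or 0.1799, 0.186 and 0.157 against 0.04004, 0.1205 and 0.137 CPM, which did not overlap. The Otx-type gene ceh-36, known for the AWC olfactory neuron, took 4, 7 and 5 against 3, 3 and 4, and ceh-17, a Phox2-type gene of few neurons, at most 2 reads in a library. The others were ceh-7, ceh-9, ceh-12, ceh-23, ceh-33, ceh-53, ceh-54, ceh-57, ceh-75, ceh-76, ceh-81, ceh-87 and ceh-90. None of the 19 entered the test, so neither a difference nor its absence was shown for them.

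Homeobox genes without a ceh name were measured too. Of 39 such genes 31 were tested, and 22 were higher, 6 lower and 3 not called, with a median log2 change of 1.18 beside 0.22 over all tested genes. The higher share, 71.0%, stood beside 46.4% of all tested genes and 67.3% of those under 10 CPM, and this list and the ceh genes were not matched for level. The smallest p on the higher side were those of lim-7 (1.796), ttx-1 (3.19), an Otx-type gene of thermosensory neurons, pros-1 (2.46), the Prospero gene, and unc-86 (3.19), a POU gene of sensory neurons. On the lower side they were those of nsy-7 (-1.04), hmbx-1 (-1.01), duxl-1 (-0.65) and pal-1 (-0.39), the caudal gene that mothers supply to embryos. pal-1 had 153, 158 and 164 CPM against 203, 213 and 206 CPM and did not pass with library totals (-0.10). Of the Hox genes, mab-5 (0.75), egl-5 (1.14), nob-1 (1.21) and php-3 (1.53) were higher, as ceh-13 was, and lin-39 was lower (-0.60, SE 0.14). The call of lin-39 did not hold in every alternative, and its log2 change was -0.31 with library totals. mab-5 was not called with the length trend removed (0.36).

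The members are spread over all chromosomes, with 8 on chromosome I, 13 on II, 8 on III, 4 on IV, 12 on V and 18 on X. On the X chromosome 14 were tested, and 6 (42.9%) were higher and 5 (35.7%) lower. On the autosomes 30 were tested, and 14 (46.7%) were higher and 11 (36.7%) lower. Of all tested genes, which were not split by chromosome, 46.4% were higher and 37.7% lower. The median log2 change of the ceh genes was 0.46 on X and 0.25 on the autosomes, beside 0.22 over all tested genes. Changes differed widely within each, from -1.91 to 2.65 on X. On the same strand of X, ceh-36 and ceh-37 lie 10805 bases apart, and ceh-37 was among the higher genes while ceh-36 had too few reads to be tested.

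Scaling moved these values as it moved those of other genes. TMM factors lay between 1.10 and 1.11 under one label, Y6B3B.9, and between 0.895 and 0.910 under the other, so they went with the labels. The median over all tested genes, 0.22 with TMM, was 0.066 under DESeq2's size factors and 0.51 under library totals, where that of the ceh genes was 0.245 and 0.686. Of the 36 called ceh genes 35 kept their direction under both, the exception being ceh-91.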

How the data were processed

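RNA of whole hermaphrodites was sequenced in 6 libraries, grouped by the perturbation label, with replicates numbered in the order of the sample records and not paired. The kit named in the labels' protocols, TruSeq RNA v2, keeps no record of strand. The submitters' processing notes name build WBcel235, STAR 2.4.1d, featureCounts 1.4.6-p4 and bcl2fastq 1.8.4. Not given in the sources used here were the strand setting, the annotation release and other options. The authors deposited raw counts per gene, which summed to between 23103541 and 32012257 reads a library, and RPKM values. In the deposited RPKM values the library totals had been recycled along the table: among 4330 genes with at least 1000 reads in each library, the implied gene length was constant within 0.1% for 4330 with recycled totals and for 0 with own totals. RPKM therefore served only to give gene lengths and, with own totals restored, 2 alternatives.

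Counts were tested over the whole table with edgeR 4.0.16 in R 4.3.3 (filterByExpr, TMM, glmQLFit with robust=TRUE, glmQLFTest) with a threshold of 0.05. Filters by CPM used library totals without TMM scaling. Levels per length divide by kilobases of gene length. SEs come from the F statistic. Alternatives were scaling by library totals or by DESeq2's size factors, no filter or 1 CPM in 3 libraries, robust=FALSE, each library left out in turn, limma 3.58.1 (voom on counts; trend on RPKM, as log2 with pseudocounts of 0.1 and 1), the Wald test of DESeq2 1.42.0, and removal of a loess trend of log2 change on log2 gene length. Pairs of libraries of one label differed by more than sampling noise (chi-square over its degrees of freedom lay between 4.08 and 15.2). Whether they were separate cultures is not stated, so p-values measure the spread between these libraries. Symbols came from WormBase names matched by ID for 43693 features, and positions from an annotation of the same build. Classes and roles of genes are background knowledge. Members, marker lists and tests were chosen with earlier results of these data known. Values in every library are given for the 8 ceh genes in each direction with the smallest p among those averaging 1 CPM or more, for the 6 highest levels per length and for members with a known role. From the marker lists (germline, embryo, yolk, intestine, sheath, neurons, pharyngeal and body muscle, epidermis, sperm) up to 3 genes with the smallest p are named. Others named were chosen after their values were seen. Protein and promoter sequences were not used here. Figures were drawn with matplotlib 3.10.9.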

Additional observations from a re-analysis of the deposited data

How the results depend on the processing

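Under 16 alternatives, 27 of 44 tested ceh genes kept direction and call wherever they gave a value. The counts of 20 higher and 16 lower ceh genes, and of 22 and 6 other homeobox genes, stayed within 1.5 times, except for 13 higher ceh genes with a filter of at least 1 CPM in 3 libraries, which tests fewer genes, 31 of the 63. The ceh median, 0.40, was 0.0878 with that filter, 0.243 by the DESeq2 Wald test, 0.245 with DESeq2's size factors, 0.00661 with the length trend removed, 0.686 with library totals, 0.653 and 0.345 by limma-trend on RPKM with pseudocounts of 0.1 and 1, 0.351 with no filter and between 0.357 and 0.498 leaving out a library. The cause of these shifts was not tested.

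Signs reversed in 7 genes. With the length trend removed ceh-6 was at -0.158, ceh-34 at -0.311, ceh-63 at -0.129, ceh-88 at -0.397 and ceh-89 at -0.341. By the DESeq2 Wald test, with DESeq2's size factors and with no filter, ceh-6 was at -0.123, -0.1199 and -0.0652, ceh-34 at -0.0866, -0.0895 and -0.0343, and ceh-88 at -0.09102, -0.09001 and -0.0351. With library totals and the RPKM fits ceh-58 was at 0.283, 0.281 and 0.263, and ceh-91 at 0.152, 0.151 and 0.147, while ceh-58 was at 0.0878 with the filter of 1 CPM. Leaving out a library put ceh-6 between -0.0807 and 0.202, ceh-34 between -0.02995 and 0.154, ceh-58 between -0.0604 and 0.0305 and ceh-88 between -0.006902 and 0.112. Depth limits the 19 untested genes. No paired analysis was possible because the labels carry no replicate number shared between the groups.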
